A study of Caenorhabditis elegans with 3 samples.

Results

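Proteasome and ubiquitin pathway genes were examined for the binding of the transcription regulator DRAP-1 in embryos of Caenorhabditis elegans. The genes were chosen by name alone. They are the protein-coding genes on the 6 chromosomes whose name starts with pas-, pbs-, rpt-, rpn-, ubc-, uba-, ubq-, cul- or skr- followed by a number, and there were 85 of them among 19973 protein-coding genes. They fell into 5 classes. There were 14 genes for the 20S core (pas, pbs) and 19 for the regulatory particle (rpt, rpn). Another 5 were for ubiquitin (ubq) and for activating enzymes, called E1, of ubiquitin or ubiquitin-like proteins (uba). The rest were 21 for conjugating enzymes, called E2 (ubc), and 26 for ligase scaffolds and adaptors (cul, skr). The naming rule uses no measured value, although the set of families was proposed with earlier results of these data known.

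The measurements came from chromatin immunoprecipitation followed by sequencing (ChIP-seq), in 3 biological replicates of 1 group, numbered 2, 3 and 4 in the labels. The worms were strain OP700, in which the transgene wgIs700 supplies DRAP-1 with a C-terminal tag of TY1, EGFP and 3xFLAG together with unc-119(+), in an unc-119 (tm4063) background. Chromatin was from whole mixed-stage embryos of both sexes obtained by egg bleaching, for which the labels give 3 hours as the age, and was sheared by sonication. The descriptions name an antibody against GFP, while the antibody label names drap-1. All replicates carry the same transgene, so binding of the untagged protein was not measured, and whole embryos mix all their cell types. No worms without the tag and no other condition are compared here. The design therefore allows comparisons between replicates, between classes of genes and with all protein-coding genes.

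The proteasome is the protease that degrades proteins marked with ubiquitin. Its barrel-shaped core holds the proteolytic sites, and the regulatory particle binds, unfolds and feeds in the marked proteins. Ubiquitin is activated by an E1 enzyme, handed to an E2 conjugating enzyme and attached to substrates with the help of ligases, among them the complexes built on cullins with Skp1-related adaptors. In worms, the transcription factor SKN-1 is known to raise proteasome genes when proteasome function is impaired. DRAP-1 is related to the alpha subunit of NC2, a complex known to bind TBP, the TATA-box factor, on promoter DNA.

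The authors deposited 30000 candidate regions for each replicate, 30000 for the pooled reads of the replicates, and 1468 peaks that passed their irreproducible discovery rate (IDR) procedure. The pooled candidates are labelled as peaks and background, and their −log10 q-values ran from 0.164 to 2.83. A candidate alone is therefore not a call of binding. Each region has a signal value on an unstated scale, which differs between lists, so that ranks by signal within a list are compared (rank 1 is the highest). Ranked by signal, the IDR peaks were regions 1 to 1468 of the pooled list, with signals from 126.7 to 2257. This number is called N below. A gene had a summit when the highest point of a region lay within 500 bp of its 5′ end. Depth is unknown, as the lists give no numbers of reads, and 1 summit can count for 2 neighbouring genes.

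The 101 bases around 6 of the 8 IDR summits at pathway genes follow, to show the DNA on which the results below rest. They are the summits of the regulatory particle genes rpn-7, rpn-11, rpn-13, rpn-3 and rpn-9 and of the E2 gene ubc-6. Each is written 5′ to 3′ on the strand of the gene, from build ce11 (the RefSeq copy of WBcel235), with the summit at the middle base. Capitals mark GTCAT, one form of the core of the SKN-1 site, or GAANNTTC, part of a heat shock element, on either strand. TATAAA, the core of the TATA box, and CACGTG, an E-box, were searched in the same way and were found in none of the 8 summit windows.
rpn-7, chrIV:9316192-9316292, plus strand: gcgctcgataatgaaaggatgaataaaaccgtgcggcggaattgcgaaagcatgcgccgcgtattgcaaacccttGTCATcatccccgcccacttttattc
rpn-11, chrII:4044466-4044566, minus strand: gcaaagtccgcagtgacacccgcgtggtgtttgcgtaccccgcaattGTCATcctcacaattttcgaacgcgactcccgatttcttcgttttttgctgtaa
rpn-13, chrIII:6342211-6342311, minus strand: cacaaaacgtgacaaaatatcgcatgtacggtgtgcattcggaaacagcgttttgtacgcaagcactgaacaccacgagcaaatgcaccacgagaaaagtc
rpn-3, chrIII:8447124-8447224, plus strand: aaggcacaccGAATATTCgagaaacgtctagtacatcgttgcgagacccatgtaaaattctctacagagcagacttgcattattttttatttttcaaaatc
ubc-6, chrII:7478804-7478904, plus strand: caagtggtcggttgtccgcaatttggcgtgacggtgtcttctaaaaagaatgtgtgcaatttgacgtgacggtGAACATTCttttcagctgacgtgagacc
rpn-9, chrII:11239127-11239227, minus strand: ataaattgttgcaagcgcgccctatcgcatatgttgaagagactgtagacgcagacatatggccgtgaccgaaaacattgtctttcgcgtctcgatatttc

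The summits of ubc-12 and ubc-3, both on chromosome I, are described without sequence. Across the 8 summit windows the median GC content was 49%, against 50.5% in the windows of all 589 IDR summits at coding genes and 41.6% in those of the 1468 lowest-signal pooled regions. The single windows ran from 36.6% at rpn-3 to 59.4% at ubc-12. GTCAT was present at 3 of 8 summits (37.5%), those of rpn-7, rpn-11 and ubc-12, against 13.4% of IDR summits at coding genes and 14.7% of the lowest-signal regions. GAANNTTC was present at 2 of 8, those of rpn-3 and ubc-6, against 3.74% and 5.86%. TATAAA was present at 3.57% of IDR summits at coding genes and 6.06% of the lowest-signal regions, and CACGTG at 2.55% and 3.68%. With 8 windows these shares rest on a few genes, and a match says only that the letters are present.

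IDR peaks were found at 8 of the 85 pathway genes (9.41%), against 748 of all 19973 protein-coding genes (3.75%). Of the 8, 5 were genes of the regulatory particle and 3 were genes of conjugating enzymes. No gene of the core, of ubiquitin and E1, or of the ligase class had one. With 14, 5 and 26 genes in these classes, a count of 0 is close to the 3.75% of all coding genes. The regulatory particle share was 5 of 19 (26.3%) and the conjugating enzyme share 3 of 21 (14.3%). Within the regulatory particle, the 5 genes were all among the 13 rpn genes, which encode the subunits that are not ATPases. None was among the 6 rpt genes, which encode the ATPase ring. For 6 genes, 0 is also close to the share of all coding genes. No test of these differences was made.

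The count depended on the window and on the rule for a call. Within 250 bp it was 2 (rpn-11 and rpn-3), close to the 2.12% of all coding genes. With the 5′ ends of all transcripts it was 9, against 4.06%, and 10 where the region and not its summit had to reach the window, against 4.3%. In the higher-signal part of the IDR peaks it was 2 (rpn-7 and rpn-11), close to the 1.92% of all coding genes. Where IDR peaks also needed a summit above N within 100 bp in both remaining replicates, it was 5 without replicate 2 (against 2.16%), 4 without replicate 3 (against 2.05%) and 2 without replicate 4 (against 2.05%). This rule is stricter than that of the count of 8, so the lower counts cannot be put down to the left-out replicate alone. The genes in all 3 of those sets were rpn-7 and rpn-11.

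The 8 peaks were mostly in the weaker part of the IDR list. Their pooled signals had a median of 161.5, against 179.0 for the IDR summits of all coding genes, and 6 of the 8 ranked in the lower part of the list. Of pathway genes, 47 of 85 (55.3%) had any pooled candidate, against 31.3% of all coding genes. Among genes with a candidate, the IDR share was 17.0% for pathway genes and 12.0% for all coding genes. The contrast with all genes was therefore smaller among genes that had any candidate.

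**Figure D1:**
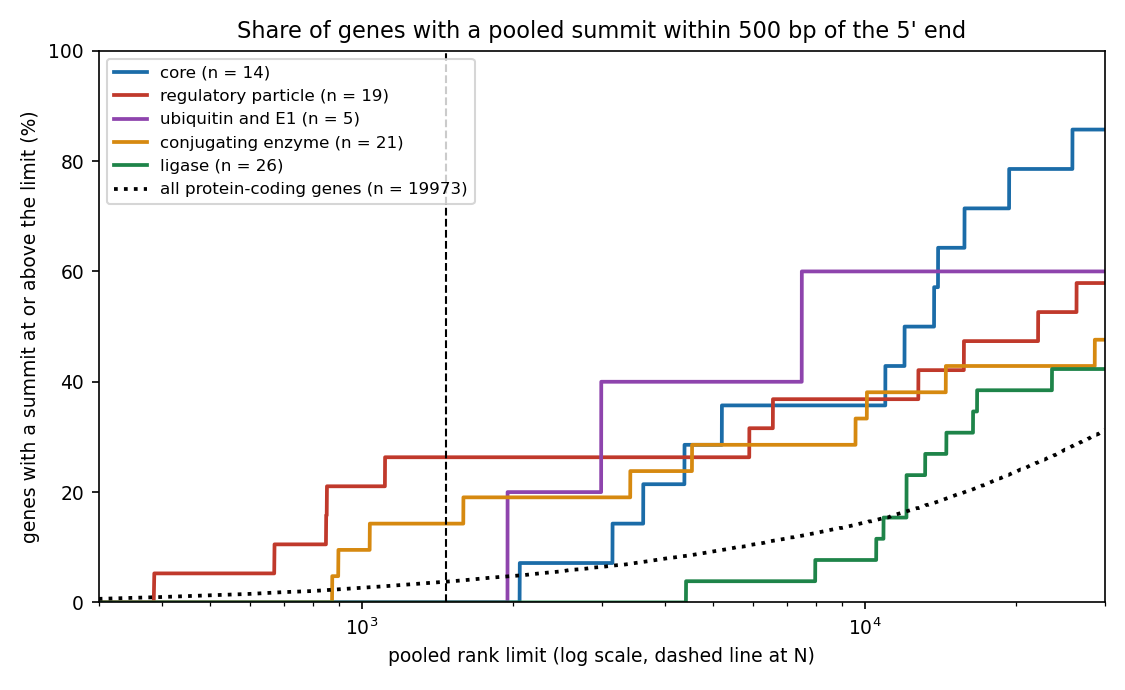
The share of genes in each class with a pooled summit within 500 bp of the 5′ end (vertical axis, %), as the rank limit is relaxed (horizontal axis, log scale), with all 19973 protein-coding genes as a dotted line. The regulatory particle line stood at 26.3% at N (dashed), while the core line was at 0 there and reached 85.7% over all 30000 candidates.

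Among the regulatory particle genes, rpn-7 had the highest signal. It encodes a lid subunit, and its peak (chrIV:9316030-9316453, pooled signal 236.1, rank 387) had the summit at −389 bp, where negative positions are upstream of the 5′ end. Its signals were 100.1, 72.06 and 45.9 in replicates 2, 3 and 4, which gave ranks of 431, 570 and 733. All 3 ranks were above N, and the summits lay at −390, −390 and −362 bp. The same summit lay at −27 bp of F49C12.9, a coding gene on the opposite strand, so the peak is nearer to that neighbour than to rpn-7.

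The 250 bases before and 50 after the 5′ end of rpn-7 are shown because the summit lies outside them. The downstream edge of the peak region reaches into them. GTCAT (here on the minus strand, so that it reads ATGAC) is in capitals. It lies downstream of the 5′ end, inside rpn-7.
rpn-7, chrIV:9316381-9316680, plus strand: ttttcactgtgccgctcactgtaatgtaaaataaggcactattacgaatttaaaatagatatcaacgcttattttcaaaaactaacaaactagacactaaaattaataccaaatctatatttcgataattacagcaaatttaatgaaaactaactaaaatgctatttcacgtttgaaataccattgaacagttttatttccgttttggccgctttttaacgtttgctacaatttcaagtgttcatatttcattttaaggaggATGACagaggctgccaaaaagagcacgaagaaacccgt
This stretch held 31.3% GC, against 50.5% in the 101 bases at the summit.

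The gene rpn-11 encodes the deubiquitinating subunit that removes ubiquitin chains from substrates. Its peak (chrII:4044304-4044727, signal 182.9, rank 671) was the only one of the 8 with the summit inside the gene, 30 bp downstream of the 5′ end in an exon of rpn-11. The signals were 62.6, 61.1 and 56.26 in replicates 2, 3 and 4, with ranks of 1416, 848 and 475. All 3 ranks were above N, although that of replicate 2 was close to it, and the next 5′ end of any gene was 980 bp away. Of the 85 genes, rpn-7 and rpn-11 alone ranked above N in all 3 replicates (2.35%), against 1.8% of all coding genes. By this stricter count the share was close to the background.

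The ubiquitin receptor gene rpn-13 had its peak (chrIII:6342049-6342472, signal 162.8, rank 850) at −333 bp, in a gap of 462 bp behind a gene on the same strand. Replicates 2, 3 and 4 gave signals of 61.24, 50.57 and 40.75 and ranks of 1498, 1300 and 980. The rank in replicate 2 missed N by a small margin, and the 3 summits, at −332, −337 and −334 bp, fell within a few bases of each other.

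For rpn-3, which encodes another lid subunit, the peak (chrIII:8446962-8447385, signal 162.5, rank 853) lay at −179 bp. Its signals were 82.04, 37.73 and 38.0 in replicates 2, 3 and 4, with ranks of 694, 2848 and 1195. The rank in replicate 3 was below N. Other genes share this peak, since its summit lay at −79 bp of the noncoding RNA gene C30C11.14 and within 500 bp of hsp-110, a chaperone gene on the opposite strand.

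The lid subunit gene rpn-9 had the weakest of the 5 (chrII:11238965-11239388, signal 143.6, rank 1113), at −258 bp of the gene and −420 bp of T06D8.9 on the other strand. Its signals were 80.74, 44.58 and 24.1 in replicates 2, 3 and 4, with ranks of 726, 1802 and 4396. Replicate 2 alone placed it above N, and replicate 4 ranked it far lower. The other 8 rpn genes and the 6 rpt genes had no IDR summit. The best ranked of them were rpn-2, a large base subunit (pooled rank 5895), and rpt-1 (6567). For rpn-2 there was no candidate in replicate 2, and ranks were 7607 and 8687 in replicates 3 and 4. For rpt-1 the ranks were 20262, 9986 and 4123. Neither was above N in any replicate. The best summits of rpn-2 lay at −157 and 287 bp in replicates 3 and 4. Those of rpt-1 lay at −96, −148 and −174 bp in the replicates, while its pooled summit was at 113 bp.

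**Figure D2:**
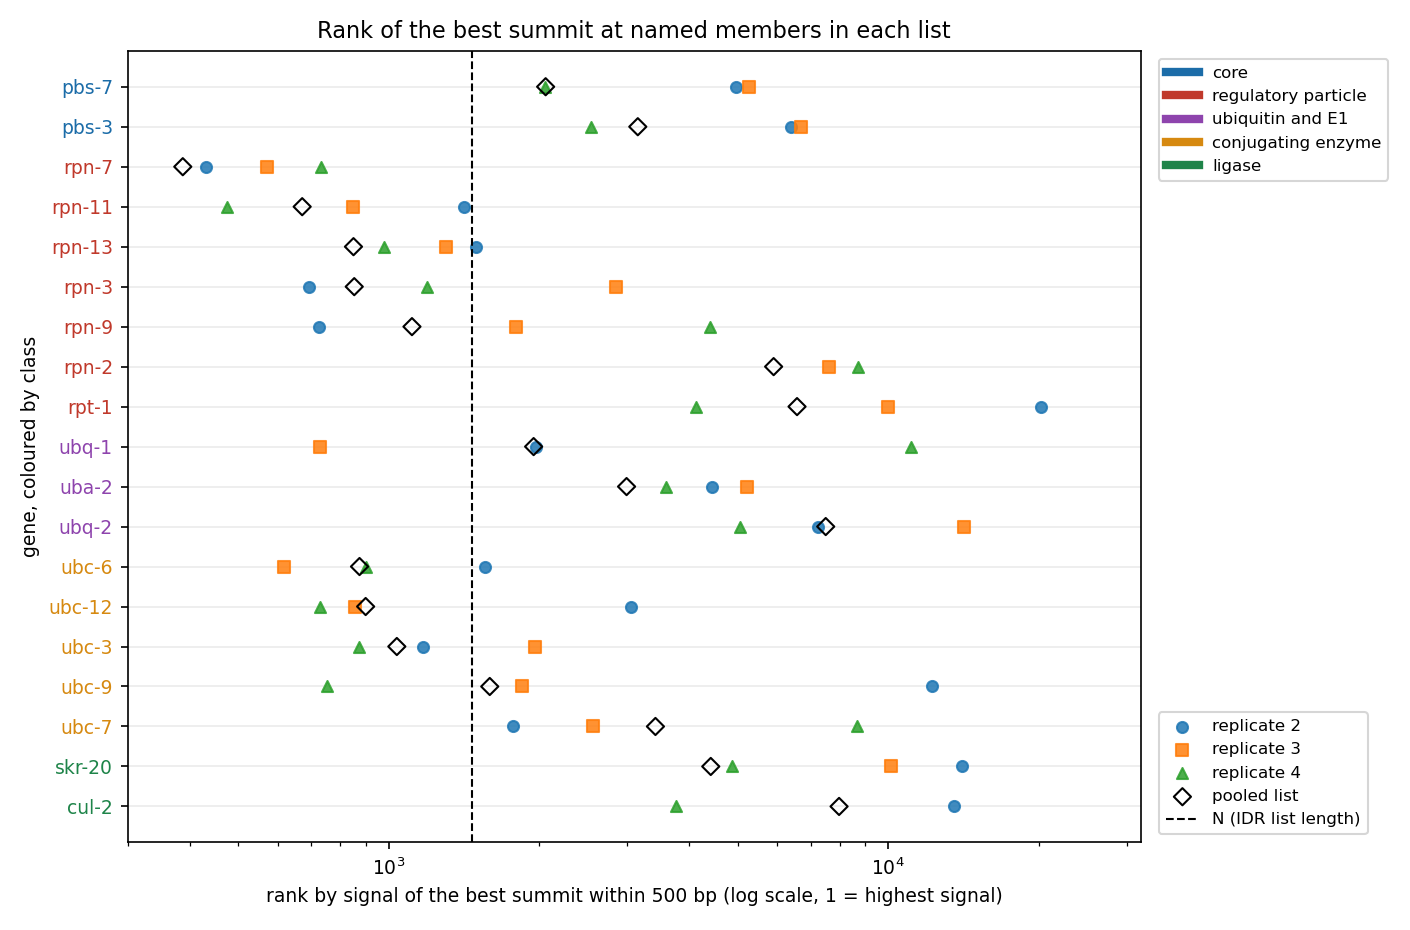
Rank by signal (horizontal axis, log scale) of the best summit within 500 bp of each named gene (vertical axis, coloured by class) in replicates 2, 3 and 4 and in the pooled list, with N dashed. Points of rpn-7 and rpn-11 all lie left of N, and those of core and ligase genes all lie right of it. A missing point means that the list had no candidate there.

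The IDR peaks at conjugating enzyme genes had a median pooled signal of 159.0, close to the 162.8 of those at regulatory particle genes. All were weaker than those of rpn-7 and rpn-11 and stronger than that of rpn-9. None was above N in every replicate, which also held for rpn-13, rpn-3 and rpn-9. The gene ubc-6 encodes an enzyme of the family that acts in degradation of proteins from the endoplasmic reticulum. Its peak (chrII:7478777-7478906, signal 160.6, rank 874) was 130 bp wide, against a median of 424 bp in the IDR list, and its summit lay at −333 bp. The signals were 60.52, 69.66 and 42.24 in replicates 2, 3 and 4, with ranks of 1558, 618 and 901, and replicate 2 was just below N. The summit was slightly nearer to aka-1, on the opposite strand (at −317 bp of it).

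Between the ubc-6 peak and the gene lies a long inverted repeat. The promoter window of ubc-6 is shown with both arms in capitals.
ubc-6, chrII:7478937-7479236, plus strand: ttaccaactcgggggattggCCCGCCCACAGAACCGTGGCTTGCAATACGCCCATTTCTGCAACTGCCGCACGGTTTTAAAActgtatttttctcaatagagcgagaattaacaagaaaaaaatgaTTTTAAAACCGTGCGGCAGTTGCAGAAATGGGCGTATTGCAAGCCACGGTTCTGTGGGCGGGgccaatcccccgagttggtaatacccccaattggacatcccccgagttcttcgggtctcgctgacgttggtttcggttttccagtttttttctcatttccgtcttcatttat
The arms are exact reverse complements of 62 bases, from −230 to −169 and from −124 to −63. Of the 85 genes ubc-6 alone had an inverted repeat with arms of at least 20 bases in this window (1.18%), against 68 of all coding genes (0.34%). Within 500 bp of its 5′ end 80.4% of 32-base words occurred once in the genome, while inside the peak itself all of them did. The part of the repeat in the position or width of the peak was not tested.

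The enzyme encoded by ubc-12 conjugates NEDD8, the ubiquitin-like protein that activates cullins. Its peak (chrI:11910837-11911260, signal 159.0, rank 899) lay at −271 bp of it and −28 bp of rbm-3.2, an RNA-binding protein gene on the opposite strand. Signals were 47.79, 60.86 and 45.95 in replicates 2, 3 and 4, with ranks of 3061, 856 and 730. Replicate 2 stood apart here, with a rank below N and a summit at −172 bp, 99 bp from the pooled summit.

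The CDC34-type enzyme gene ubc-3 had its peak (chrI:1697877-1698300, signal 149.2, rank 1038) at −260 bp, with no other 5′ end within 500 bp. The signals were 67.36, 43.14 and 42.59 in replicates 2, 3 and 4, with ranks of 1170, 1966 and 870. Here replicate 3 was below N. The replicate that ranked a peak lowest thus differed among the E2 genes.

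Just outside the threshold was ubc-9, the E2 of the ubiquitin-like protein SUMO, with a pooled signal of 122.0 (rank 1593, summit at −266 bp). Its signals were 28.88, 44.13 and 45.42 in replicates 2, 3 and 4, with ranks of 12260, 1850 and 754. It was high in replicate 4 and far down the list in replicate 2, where the best summit lay elsewhere, at 8 bp. The gene ubc-7 had a pooled rank of 3419 and ranks of 1775, 2567 and 8639, and its summit in replicate 2 was inside the gene, not at that of the other replicates (−261 and −271 bp). The other E2 genes with a pooled candidate ranked from 4535 to 28656, and 11 of the 21 had none. A pooled candidate was thus present at 10 of 21 (47.6%), against 31.3% of all coding genes. Of these 21 genes, ubc-19 and ubc-25 also entered the N highest regions, each in 1 replicate (rank 974 in replicate 2 and rank 852 in replicate 4). They were named after their values were seen.

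The positions of the 8 peaks are a description only. IDR peaks come from a procedure that looks for repeating regions, and here they equal the 1468 pooled regions of highest signal. The pooled summit is made from the same reads as the replicate summits. At the 8 genes, 21 of the 24 replicate summits lay within 50 bp of the pooled summit and all 24 within 100 bp, with a median distance of 16.5 bp. Of the 8 summits 7 were upstream of the gene (87.5%), as were 87.6% of those of all coding genes. The median position was −265.5 bp, against −199 bp for all coding genes (quartiles −301.25 and −89 bp). In the replicates the median of the same 8 genes was −272, −264 and −275 bp. These positions refer to annotated gene ends, which can differ from true transcription starts.

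**Figure D3:**
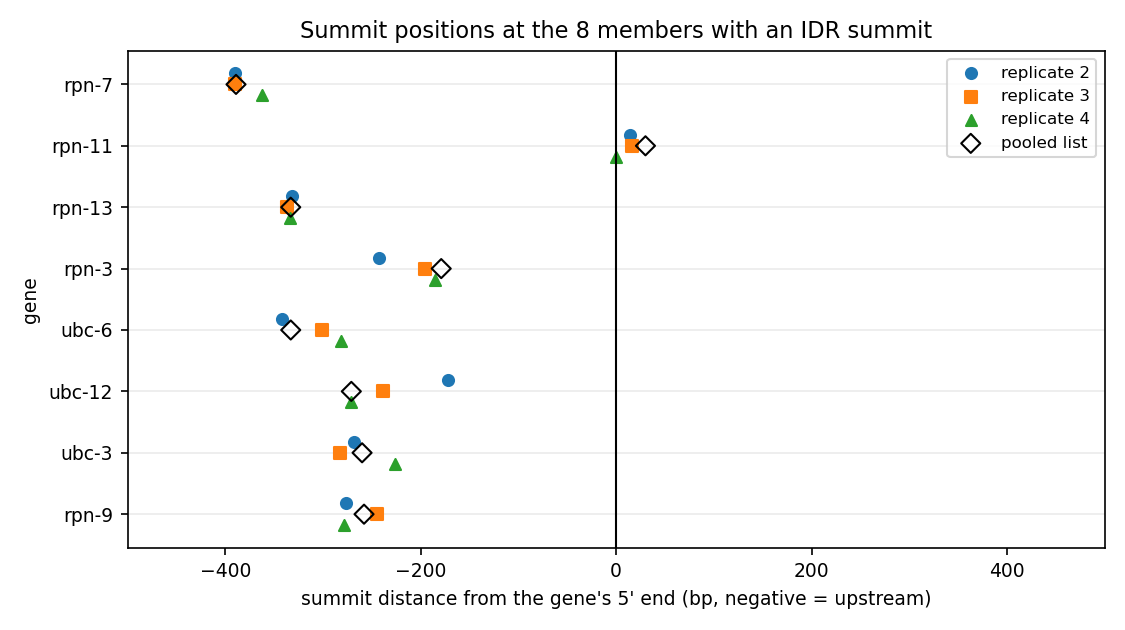
Distance of the summit from the 5′ end of each of the 8 genes with an IDR summit (horizontal axis, bp, negative is upstream), in replicates 2, 3 and 4 and in the pooled list. The summits of rpn-13 in the lists lie within a few bases of each other, and rpn-11 has its pooled summit downstream of 0, at 30 bp.

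Core subunit genes had many candidates but no IDR summit. A pooled candidate was present at 12 of the 14 genes (85.7%), against 31.3% of all coding genes. Candidates include background, and the −log10 q-values of these 12 ran from 2.0 at pbs-7 down to 0.201 at pas-2. In every replicate a candidate was present at 8 of 14 (57.1%), against 13.6%. None ranked above N in any list. For 14 genes, a count of 0 is close to the 3.75% of all coding genes with an IDR summit. The pooled ranks ran from 2061 to 25869 with a median of 11491.5, against 11289 for all coding genes with a candidate. The counts up to rank 5000 were 4 of 14 (28.6%) against 9.25%, and up to rank 10000 they were 5 of 14 (35.7%) against 14.5%.

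The highest ranked core gene was pbs-7, a beta subunit gene, with a signal of 109.0 (chrI:8696189-8696612, rank 2061) and the summit at −100 bp. Its signals were 40.57, 30.67 and 30.94 in replicates 2, 3 and 4, with ranks of 4962, 5268 and 2054, all below N. The beta subunit gene pbs-3 followed with a signal of 90.82 (rank 3152, summit at −103 bp) and ranks of 6396, 6697 and 2541. Its pooled summit lay in an exon of another coding gene, ulp-2, although the nearest 5′ end was that of pbs-3. For pbs-7 and pbs-3 replicate 4 gave the best rank. Of the 12 core candidates 6 were upstream and the others downstream of the 5′ end, such as those of pas-1 at 417 bp and pbs-1 at 468 bp downstream. All 7 pbs genes had a pooled candidate and 5 of the 7 pas genes did. The alpha subunit gene pas-5 had no candidate in any of the lists.

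Ubiquitin itself is encoded by ubq-1, a polyubiquitin gene, and by ubq-2, a fusion with a ribosomal protein. At ubq-1 the pooled signal was 111.5 (chrIII:5940512-5940935, rank 1950), with the summit 470 bp inside the gene, in an intron. The signals were 55.45, 65.17 and 17.54 in replicates 2, 3 and 4, with ranks of 1968, 728 and 11084. It was above N in replicate 3 alone, and in replicate 4 the best summit lay elsewhere, at −177 bp. At ubq-2 the pooled rank was 7495, with the summit at −453 bp. That summit was nearer to frg-1, on the opposite strand (at −186 bp of it). The ranks of 7222, 14172 and 5057 in replicates 2, 3 and 4 belonged to summits at 412, −158 and −488 bp of ubq-2. The best summits were thus at different places, and lower-ranked ones were not compared.

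Of the E1 genes, uba-2, a subunit of the SUMO-activating enzyme, had a pooled rank of 2993 (signal 92.96, summit at −274 bp) and ranks of 4430, 5208 and 3593. That summit lay at −39 bp of vps-25 on the opposite strand. The ubiquitin-activating enzyme gene uba-1 had no pooled candidate.

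The gene uba-5, which encodes the activating enzyme of the ubiquitin-like protein UFM1, was missed by the window alone and is named here after its values were seen. An IDR peak (chrI:3873748-3874171, signal 237.0, rank 383) had its summit in an intron of uba-5 at 516 bp from the 5′ end. Within 100 bp of that summit the replicates ranked 489, 350 and 601, all above N, with summits at 467, 509 and 483 bp. Its signal exceeded that of rpn-7, so the exact edge of the window decided whether the strongest nearby peak was counted. With a window of 1000 bp the count was 11 of 85, against 5.17% of all coding genes, and the added genes were uba-5, pas-1 and rpn-8. The pas-1 peak (rank 455, at −827 bp) was nearest rpoa-12, a gene for an RNA polymerase subunit, and that of rpn-8 (rank 958, at 676 bp, in an intron of rpn-8) was nearest the gene R12E2.17.

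Ligase genes had candidates but few high ones. None of the 26 cullin and Skp1-related genes had an IDR summit, and none ranked above N in any replicate. For 26 genes, a count of 0 is close to the 3.75% of all coding genes with an IDR summit. A pooled candidate was present at 11 (42.3%), against 31.3% of all coding genes, comprising 4 of 6 cul genes and 7 of 20 skr genes. The −log10 q-values of these candidates, which include background, ran from 1.22 at skr-20 down to 0.228 at skr-1. In every replicate a candidate was present at 2 of the 26 (7.69%), against 13.6% of all coding genes. Up to rank 5000 the count was 1 of 26 (3.85%), against 9.25%. The best was skr-20 on X, with the summit 224 bp inside the gene, a pooled signal of 79.79 (rank 4412) and ranks of 14016, 10133 and 4856. The cullin gene cul-2 followed with rank 7971, ranks of 13533 and 3758 in replicates 2 and 4, and no candidate in replicate 3. The divergent genes skr-7 and skr-14 share 1 pooled summit (rank 12105), so these 11 genes stand for fewer regions.

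Near the 5′ ends of several skr genes, part of the sequence also occurs elsewhere in the genome. Whether reads could be placed there was not measured. Within 500 bp of the 5′ end, under 90% of 32-base words were unique in the genome for 6 of the 26 ligase genes (skr-4, skr-8, skr-9, skr-10, skr-12 and skr-13), and the lowest share was 46.9%. Over all 19973 coding genes 2374 were under that limit. None of these 6 had a pooled candidate. Of the other 59 pathway genes ubc-6 alone fell under 90%. The part of repeated sequence in the low count of the ligase class was not tested. Among the 20 ligase genes above that limit, 11 had a pooled candidate and 0 an IDR summit. Over all coding genes, whatever their uniqueness, the shares were 31.3% and 3.75%.

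**Figure D4:**
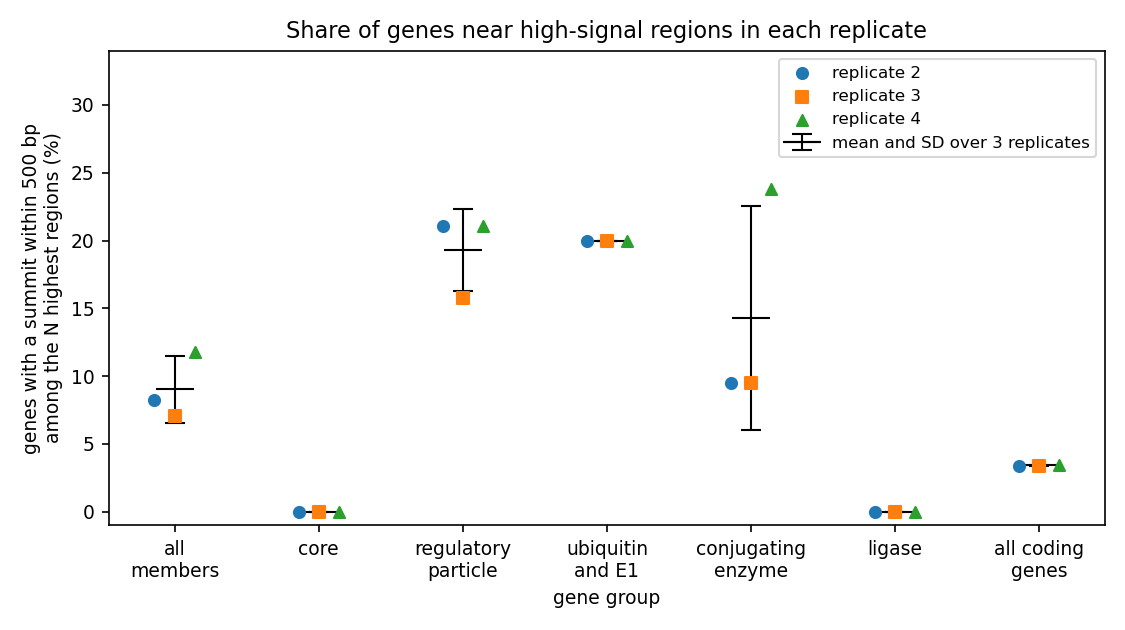
Share of genes with a summit within 500 bp among the N highest regions (vertical axis, %) in replicates 2, 3 and 4, by class, with the mean and SD over the 3 replicates. All members lie between 7.06% and 11.8%, against 3.39% to 3.48% for all coding genes, and the core and ligase classes are at 0 in each replicate.

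The replicate lists also had no core or ligase gene above N. For classes of 14 and 26 genes this is close to the share of all coding genes. Pathway genes above N numbered 7, 6 and 10 of 85 in replicates 2, 3 and 4. The mean share was 9.02% ± 2.45 (SD, n = 3) for pathway genes and 3.43% ± 0.0445 for all coding genes, which had 3.41%, 3.39% and 3.48%. The replicate ranges did not overlap. Both shares come from the same 3 libraries, and no test was made. The regulatory particle had 4, 3 and 4 of 19 genes (19.3% ± 3.04) and the conjugating enzymes 2, 2 and 5 of 21 (14.3% ± 8.25). For the conjugating enzymes replicate 4 was the high value. The difference between these 2 classes was smaller than the SD of the second. In all 3 replicates the ubiquitin and E1 class had 1 of 5 genes, which was uba-5 in replicates 2 and 4 and ubq-1 in replicate 3. In all, 13 genes were above N in at least 1 replicate (15.3%), against 5.45% of all coding genes, and 5 of these 13 were above it in only 1.

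What surrounds a gene differed between pathway genes and coding genes at large. Worm genes are often close together, some in operons, which were not annotated in the gene models used. A coding neighbour on the opposite strand lay head to head within 1000 bp of the 5′ end for 37 of the 85 pathway genes (43.5%), against 17.2% of all coding genes. The share was 64.3% for core genes, 57.9% for the regulatory particle, 60.0% for ubiquitin and E1, 38.1% for conjugating enzymes and 23.1% for ligase genes. An IDR summit was present at 5 of the 37 head-to-head pathway genes (13.5%), against 9.96% of head-to-head coding genes. It was present at 2 of 25 pathway genes with a neighbour on the same strand within 1000 bp upstream (8.0%), against 2.25% of such coding genes, and at 1 of the 22 with no such neighbour (4.55%), against 2.43%. The contrast in IDR share was thus smaller among head-to-head genes than over all genes, and larger among genes with a neighbour on the same strand, where it rests on rpn-11 and rpn-13. Its dependence on gene spacing was not tested.

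For 4 of the 8 genes with an IDR summit the peak was nearest to the gene itself (rpn-11, rpn-13, rpn-9 and ubc-3), and for the others it was nearest to a neighbour. Over all coding genes with an IDR summit the peak was nearest to the gene in 61.0%. When each summit counted for its nearest gene only, 4 of 85 pathway genes had one, against 2.3% of all coding genes.

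The promoter windows of pathway genes (250 bases before to 50 after the 5′ end) held the searched letters about as often as those of all coding genes. TATAAA was present in 27 of 85 (31.8%), against 37.9% of all coding genes. GTCAT was present in 40 of 85 (47.1%), against 39.5%, and by class in 9 of 14 core genes (64.3%), 10 of 19 regulatory particle genes (52.6%), 3 of 5 ubiquitin and E1 genes (60.0%), 9 of 21 conjugating enzyme genes (42.9%) and 9 of 26 ligase genes (34.6%). CACGTG was present in 3.53%, against 5.82%, and GAANNTTC in 17.6%, against 18.5%. Median GC content was 34.3% in both sets. In the windows of the 8 genes with an IDR summit, TATAAA was present in 0, GTCAT in 4, CACGTG in 0 and GAANNTTC in 2. The promoter windows of all coding genes with an IDR summit were not counted, so these few values have no like set beside them.

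Beyond the named families, 66 other genes of the ubiquitin pathway were counted, including proteasome regulators, ubiquitin ligases, the COP9 signalosome and the anaphase-promoting complex. An IDR summit was present at 6 (9.09%), against 3.75% of all coding genes, and 3 of the 66 ranked above N in all 3 replicates (4.55%), against 1.8%. The strongest was at cdc-48.1, which encodes the segregase that extracts ubiquitinated proteins (chrII:10563444-10563691, signal 441.0, pooled rank 114). Its summit lay at −170 bp, and it ranked 99, 130 and 106 in replicates 2, 3 and 4, above every gene of the named families in each. The HECT ligase gene wwp-1 followed (signal 282.8, ranks of 638, 173 and 364, summit at −219 bp but nearest a noncoding RNA gene). The others were gfi-3 (184.6, −161 bp), ufd-2 (161.6, −315 bp), ufd-3 (154.5, −126 bp) and sel-10 (143.5, −162 bp). Of these, ufd-2 encodes a ubiquitin chain elongation factor and sel-10 an F-box adaptor of cullin ligases. The genes cdc-48.1, ufd-2 and ufd-3 are related to yeast genes whose products work together, the last 2 as partners of the segregase. However, the 66 also held cdc-48.2, cdc-48.3, ufd-1, npl-4.1 and npl-4.2, and none of these had an IDR summit.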

How the data were processed

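Per the deposited README texts, the authors derived each replicate's list of candidate regions from its alignment and 2 control files, a pooled list from all 3 alignments, and the IDR list from these, on build ce11. Each deposited list gives the authors' signal per region and a −log10 q-value, which was not used for filtering. For the caller, its version and the IDR threshold the sources used here give no information.

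Gene 5′ ends came from Ensembl release 115 (WBcel235). All regions lay within the lengths of its chromosomes. Coordinates are 1-based. Regions were ranked by signal within a list, and a gene took its highest-signal summit within 500 bp (Python 3.11.15, pandas 2.3.3). Alternatives were another window, transcript ends, the nearest gene, shorter or longer lists and leaving out a replicate. The matching was tested on simulated summits at known distances. Shares are over all genes of a class. No set test was made. Named genes were those with an IDR summit, the best 2 others per class, ubq-1 and ubq-2. Promoter sequences were read from the RefSeq genome, as no promoter table was used. The members and lists were chosen with earlier results of these data known. Nothing but the replicate numbers says how the cultures were separated, so the SD over replicates may be partly technical.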

Additional observations from a re-analysis of the deposited data

How the results depend on the processing

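No paired analysis was possible because the 3 replicates form 1 group. The count of 8 pathway genes with an IDR summit became 2 with a window of 250 bp (rpn-11 and rpn-3, against 2.12% of all coding genes), 4 with the nearest gene only and 2 among the stronger IDR peaks (rpn-7 and rpn-11, against 1.92%). Leaving out a replicate, with a summit above N then required in both remaining ones, gave 2 to 5 of the 8, a stricter rule that also lowered the share of all coding genes to between 2.05% and 2.16%. The regulatory particle count of 5 became 2, 3 and 2 under those 3 settings and 2 to 3 without a replicate. The E2 count of 3 became 0, 1 and 0, and 0 to 2 without a replicate. The core count of 0 became 1 at 1000 bp. The ubiquitin and E1 count of 0 became 1 at 1000 bp, with transcript 5′ ends, and where the region and not its summit had to reach the window. The ligase count was 0 under every setting run. The 2 genes above N in every replicate became 1 at 250 bp, 1 with the 734 highest regions, 6 with the 2936 highest, and 2 to 5 when 1 replicate was not consulted.

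The mean share above N of all members, 9.02%, became 3.53% at 250 bp, 4.31% with 734 regions and 14.5% with 2936. For the regulatory particle it became 8.77% at 250 bp, 22.8% at 1000 bp, 10.5% with 734 regions and 24.6% with 2936. For ubiquitin and E1 it became 0.0% at 250 bp and 26.7% at 1000 bp, with transcript 5′ ends and with 2936 regions. For conjugating enzymes, 14.3% became 6.35% at 250 bp, 3.17% with 734 regions and 22.2% with 2936. The core share became 7.14% at 1000 bp and 9.52% with 2936 regions, and the ligase share 1.28% with 2936. For all coding genes, 3.43% became 1.95% at 250 bp, 4.78% at 1000 bp, 3.76% with transcript 5′ ends, 1.83% with 734 regions and 5.74% with 2936. The median summit position of −265.5 bp became −74.5 bp at 250 bp, and −333 to −179.5 bp without a replicate. A narrower window or shorter list holds fewer genes by construction. Read depth is unknown, and the pooled reads include every replicate.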
